A study of Homo sapiens with 2 samples.

Results

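The deposited peak list of a Flag chromatin immunoprecipitation (ChIP) of ZFP64 held 6373 peaks, and 375 of them (5.88%, exact binomial 95% interval 5.32 to 6.49) were annotated as lying between genes and far from a start. These far intergenic peaks were taken by the authors' deposited annotation: class distal intergenic and a distance of over 20 kb from the annotated transcription start. They covered 168 kb of the 4286 kb under all peaks. The cells were PLC/PRF/5, a long-used line grown from a human liver tumour, and carried a lentivirus for ZFP64 overexpression in both libraries. Of these 2 libraries, 1 was the Flag ChIP, made with anti-Flag antibody, and 1 was the input, chromatin that was not precipitated. There were no replicates, and tag-free cells were not analysed here, so binding of the tagged protein and nonspecific pull-down by the antibody cannot be told apart at any peak. Conditions therefore cannot be tested, and the intervals given describe counting error or peak-to-peak spread alone.

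ZFP64 is a zinc finger protein, and the series title places it in an axis with protein kinase C alpha and the macrophage growth factor CSF1. Regions between genes hold enhancers, which can act on a promoter over long distances, insulator sites that shape chromosome loops, and the starts of noncoding transcripts. They also hold tRNA genes, short units that RNA polymerase III reads from a promoter inside the gene. A gene assigned to such a peak is only the one with the nearest start.

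The word intergenic held only for part of these peaks when they were set against a second annotation, the RefSeq gene table of GRCh38. At least 1 base of a RefSeq gene lay under 121 of the 375 peaks (32.3%, 27.6 to 37.3). This was 66 of 252 (26.2%, 20.9 to 32.1) for intergenic peaks within 20 kb of a start and 87.5% for all peaks. Long noncoding RNA genes lay under 69 far intergenic peaks (18.4%, 14.6 to 22.7), against 1104 of all 6373 (17.3%), so the shares were close. Protein-coding genes lay under 29 (7.73%), against 79.9% of all, and pseudogenes under 26 (6.93%, 4.58 to 9.99). Of all 6373 peaks, 99 (1.55%, 1.26 to 1.89) overlapped a pseudogene, as did 12 of the 252 nearer intergenic peaks (4.76%, 2.48 to 8.17). Among the far intergenic peaks, those over pseudogenes included SUZ12P1, DDX12P, PMS2P3 and DND1P1, which are copies of other genes. The sources used here do not say how reads that align equally well to several copies were placed, so the position of these peaks is uncertain. The same limit holds for any peak in other repeated sequence. Which peaks those are was not examined, also not for the farthest peaks, those of high background and the tightest groups described below.

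Starts other than the annotated one were found under some peaks in the RefSeq promoter table, which gives 300 bases around each start, 250 before it and 50 after it. The table covers the chromosomes of 351 far intergenic peaks. A window was overlapped by 14 of them (3.99%, 2.2 to 6.60). For the 5 of these peaks with the highest fold, 1 window each is shown to let a reader see what kind of start lay there, with SIPA1L2, STOX2 and HTR1D added after their values were seen because they are starts of the assigned gene itself. Sequences are RefSeq, GRCh38.p14, written 5′ to 3′ on the strand of the gene. Capitals mark CCGCCC on either strand, the core of the GC box read by SP and KLF factors, except in LOC124903191, where they mark the tRNA gene TRF-GAA1-5.
LOC105370869: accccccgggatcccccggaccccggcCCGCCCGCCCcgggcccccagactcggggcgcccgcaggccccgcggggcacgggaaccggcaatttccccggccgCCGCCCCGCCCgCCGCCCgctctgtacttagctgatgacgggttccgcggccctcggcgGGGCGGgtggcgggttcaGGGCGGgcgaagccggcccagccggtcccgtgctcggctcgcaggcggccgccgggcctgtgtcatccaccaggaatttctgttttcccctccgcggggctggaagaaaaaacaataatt
LOC105379418: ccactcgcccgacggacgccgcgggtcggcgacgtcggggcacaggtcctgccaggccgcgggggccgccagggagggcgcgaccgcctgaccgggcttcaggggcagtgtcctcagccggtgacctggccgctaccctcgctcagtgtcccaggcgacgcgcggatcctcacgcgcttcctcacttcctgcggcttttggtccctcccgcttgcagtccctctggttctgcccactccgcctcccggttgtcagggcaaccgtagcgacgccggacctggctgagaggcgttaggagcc
LOC124901078: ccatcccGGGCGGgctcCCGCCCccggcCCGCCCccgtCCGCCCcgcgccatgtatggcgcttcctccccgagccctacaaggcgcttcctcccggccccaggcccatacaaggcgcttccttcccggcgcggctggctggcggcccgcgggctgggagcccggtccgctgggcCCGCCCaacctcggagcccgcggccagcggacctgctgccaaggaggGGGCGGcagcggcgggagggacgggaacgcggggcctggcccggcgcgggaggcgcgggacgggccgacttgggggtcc
LOC105376826: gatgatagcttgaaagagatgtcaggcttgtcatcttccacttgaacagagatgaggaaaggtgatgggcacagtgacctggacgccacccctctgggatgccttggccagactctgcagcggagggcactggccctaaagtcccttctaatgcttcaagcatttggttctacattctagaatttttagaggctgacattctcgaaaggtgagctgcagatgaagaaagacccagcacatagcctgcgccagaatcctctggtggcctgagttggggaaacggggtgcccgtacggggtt
LOC124903191: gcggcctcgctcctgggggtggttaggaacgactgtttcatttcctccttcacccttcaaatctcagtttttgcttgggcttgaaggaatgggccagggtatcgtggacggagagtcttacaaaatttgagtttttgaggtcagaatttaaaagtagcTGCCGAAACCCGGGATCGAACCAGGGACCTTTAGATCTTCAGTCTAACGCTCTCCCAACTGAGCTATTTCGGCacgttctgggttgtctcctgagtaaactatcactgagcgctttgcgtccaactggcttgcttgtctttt
SIPA1L2: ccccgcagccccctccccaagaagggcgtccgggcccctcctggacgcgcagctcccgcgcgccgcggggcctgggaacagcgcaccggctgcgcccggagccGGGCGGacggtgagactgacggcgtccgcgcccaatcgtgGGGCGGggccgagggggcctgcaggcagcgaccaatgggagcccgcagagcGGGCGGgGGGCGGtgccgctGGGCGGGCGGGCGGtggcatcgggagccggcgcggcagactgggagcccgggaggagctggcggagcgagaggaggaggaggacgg
STOX2: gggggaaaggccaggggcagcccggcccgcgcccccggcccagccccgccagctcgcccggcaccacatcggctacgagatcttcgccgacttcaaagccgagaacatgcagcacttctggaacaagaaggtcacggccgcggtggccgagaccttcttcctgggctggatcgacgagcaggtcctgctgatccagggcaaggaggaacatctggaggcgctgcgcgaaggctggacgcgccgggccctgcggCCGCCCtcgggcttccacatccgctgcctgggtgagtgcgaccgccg
HTR1D: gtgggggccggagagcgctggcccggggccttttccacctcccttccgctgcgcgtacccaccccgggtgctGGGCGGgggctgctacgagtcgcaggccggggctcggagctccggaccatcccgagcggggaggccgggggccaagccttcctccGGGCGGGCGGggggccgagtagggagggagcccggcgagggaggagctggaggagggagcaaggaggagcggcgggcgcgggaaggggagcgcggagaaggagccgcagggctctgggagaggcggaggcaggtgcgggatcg

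The first of these windows, LOC105370869 (chr15:66842420-66842719, minus strand), is a long noncoding RNA start inside the peak assigned to SMAD6, 130401 bp from the deposited start. All 300 of its bases lay under the peak, with a GC content of 74.7% and 7 matches to CCGCCC. LOC105379418 (chr22:10741842-10742141, plus strand) had 197 of 300 bases under a peak assigned to the olfactory receptor gene OR11H1 at 4786120 bp, the largest distance of all far intergenic peaks. It held 72% GC and 0 matches to CCGCCC. LOC124901078 (chr5:138492078-138492377, plus strand) lay wholly under the peak assigned to ETF1, which encodes a translation termination factor, and held 80.3% GC and 6 matches. A start of another kind was LOC105376826 (chr1:20213300-20213599, minus strand), near UBXN10-AS1, with 52.7% GC, 7 CpG dinucleotides and 0 matches.

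LOC124903191 (chr13:94549492-94549791, plus strand) held 49% GC and lay wholly under the peak assigned to TGDS. The 73 bases in capitals cover the phenylalanine tRNA gene TRF-GAA1-5, whose B box match is on the strand opposite to the one printed, so they show its reverse complement. This was the only one of the 17 windows under far intergenic peaks with a match to a B box consensus, the inner promoter element of tRNA genes, a motif chosen after the data were seen, against 111 of all 35116 windows (0.316%). A start of DCT, the pigment enzyme dopachrome tautomerase, lay under the same peak on the other strand. SIPA1L2 (chr1:232630084-232630383, minus strand) encodes a GTPase-activating protein. Its window held 79.7% GC and 7 matches, although the deposited annotation placed the peak 67631 bp upstream of the gene. STOX2 (chr4:183797772-183798071, plus strand), a storkhead box gene, had 190 of its 300 bases under a peak that was annotated 55184 bp upstream, and held 70% GC and 1 match. HTR1D (chr1:23217453-23217752, minus strand), a serotonin receptor gene, had 105 of 300 bases under its peak. The whole window held 76.7% GC and 3 matches, and these matches lay in the part outside the peak.

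Over all 17 windows, from 16 genes, the median GC content was 69.3% (quartiles 60 to 74.7) and the median count of CpG dinucleotides 26. Windows under promoter peaks had a median of 71.3% GC and 33 CpG (n = 3571), and all windows 58.7% and 14 (n = 35116). CCGCCC occurred in 10 of the 17 windows (58.8%), in 80.2% of windows under promoter peaks and in 45% of all windows. TGANTCA, the AP-1 consensus, occurred in 1 of 17 (5.88%), in 4.03% of those under promoter peaks and in 7.71% of all. CCCTC, a short part of the CTCF site, occurred in 15 of 17 (88.2%), 84.1% and 71.2%. Both strands were searched, a match is no evidence of binding, and overlapping windows share bases.

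A RefSeq start within 3 kb, the distance that the deposited classes use for promoters, was found for 39 of the 351 far intergenic peaks (11.1%, 8.02 to 14.9). It was found for 25 of 241 intergenic peaks within 20 kb (10.4%, 6.83 to 14.9), for 26 of 644 intron peaks (4.04%, 2.65 to 5.86) and for 3909 of 4710 promoter peaks (83.0%). For 29 of the 39 peaks the start belonged to a long noncoding RNA and for 10 to a protein-coding gene, with 1 STOX2 start counted for both of its peaks. For 5 peaks it was a start of the very gene to which the peak had been assigned. The peaks near these starts had a higher median fold than the other far intergenic peaks, a difference that was not tested. Their median fold was 6.89, and 12 of 39 had a fold of at least 10 (30.8%, 17.0 to 47.6), where 27.6% of all 6373 peaks did. The 312 far intergenic peaks without such a start had a median fold of 5.67, and 38 reached 10 (12.2%, 8.76 to 16.3). The median width was 485 bp for the peaks near a start and 365 bp for the others.

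Among the protein-coding starts was that of PPARGC1A, which encodes a coactivator of mitochondrial and gluconeogenic genes. It lay 1553 bp from a peak at chr4:24470343-24471352 with a fold of 17.4, which the deposited annotation had given to MIR573, a microRNA gene, at 48938 bp. The start of TMEM271, 131 bp away, lay beside a peak with a fold of 11.6 assigned to PIGG, which acts in GPI anchor synthesis. The start of HTR1D shown above lay under a peak with a fold of 4.86 that was assigned to HTR1D itself at 22167 bp. In the PSMB9 region of chromosome 6, which encodes antigen processing proteins, a peak with a fold of 13.0 lay over the long noncoding RNA gene LOC100294145, 324 bp from its start.

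**Figure D1:**
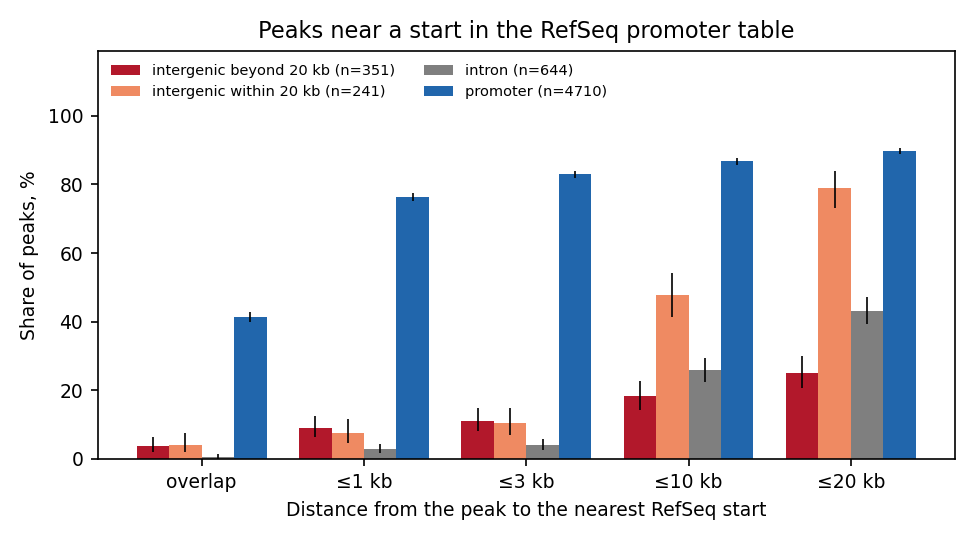
Share of peaks (%, vertical axis) that overlap a RefSeq start or lie within 1, 3, 10 or 20 kb of one (horizontal axis), by deposited class; bars are shares and lines exact binomial 95% intervals. Of the far intergenic peaks 11.1% lay within 3 kb and 25.1% within 20 kb of a start, against 83.0% and 89.9% of promoter peaks.

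The authors' deposited fold, the excess of Flag ChIP signal over expected background at a peak's highest point, was low for most far intergenic peaks. The median was 5.69 (quartiles 4.53 to 7.64, range 2.23 to 136). Intergenic peaks within 20 kb had a median of 6.03 (4.69 to 8.47), intron peaks 5.76 (4.55 to 7.70) and promoter peaks 6.98 (5.05 to 11.7). The binomial 95% interval of the far intergenic median, 5.39 to 6.03, overlapped those of the nearer intergenic peaks (5.57 to 6.40) and of introns (5.57 to 6.02), and lay below that of promoters (6.84 to 7.17). Of the far intergenic peaks, 53 had a fold of 10 or more (14.1%, 10.8 to 18.1), against 27.6% of all 6373 peaks and 31.5% (30.2 to 32.8) of promoter peaks. A fold of 5 or more was found in 62.1% (57.0 to 67.1), against 73.1% of all peaks, and a −log10 q of at least 10 by 122 (32.5%, 27.8 to 37.5), against 49.8% of all.

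The far intergenic peaks were also narrow. Their median width was 374 bp (quartiles 305.5 to 493.5, range 264 to 2015), against 425 bp for nearer intergenic peaks, 366.5 bp for introns and 573 bp for promoters. Wide peaks had high folds (Spearman's rho across the 375 peaks 0.63, and 0.69 across all 6373), with both measures from the same libraries. Just inside the distance limit lay peaks assigned to PLXND1 (20129 bp, fold 5.08), a semaphorin receptor gene, and SMKR1 (20176 bp, fold 4.72). The last ones left out lay at FERMT2 (19973 bp, fold 6.89), a gene for a focal adhesion protein, and IPO7 (-19821 bp, where the minus sign means upstream, fold 7.40), a nuclear import gene.

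**Figure D2:**
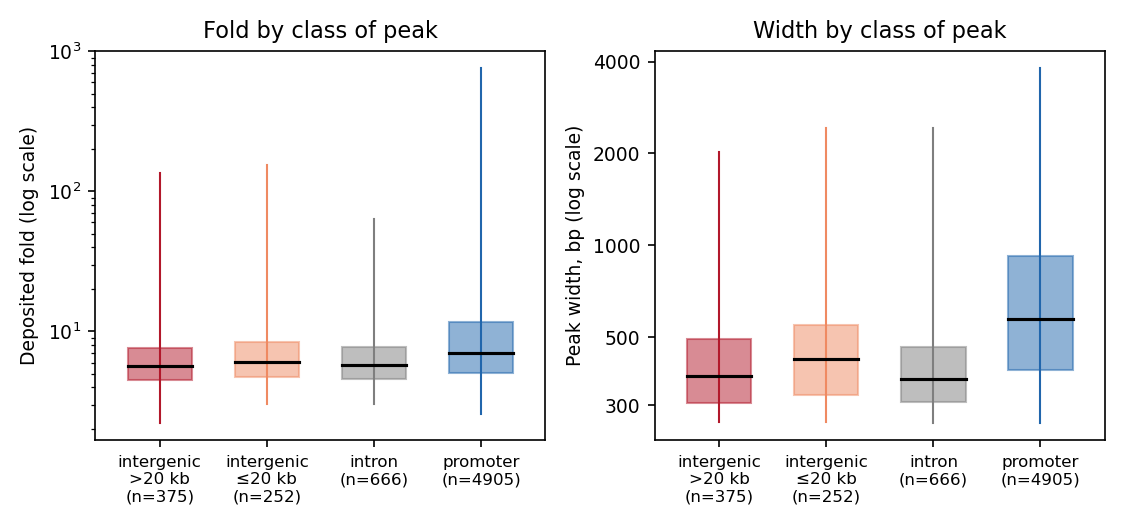
Deposited fold (left, log scale) and peak width in bp (right, log scale) by class; boxes are quartiles, black lines medians and vertical lines the full range over peaks. Far intergenic peaks had a median fold of 5.69 and width of 374 bp, promoter peaks 6.98 and 573 bp.

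A small number of far intergenic peaks stood well above the rest. METTL2B, a tRNA methyltransferase gene, was the gene assigned to the highest (chr7:128531313-128532523, 1211 bp, fold 136), which ranked 10 among all 6373 peaks. It lay 37470 bp from the deposited start and 24711 bp from the nearest RefSeq gene, and no other peak lay within 121 kb. WEE1, the cell cycle kinase gene, was assigned the next (chr11:9613338-9614906, 1569 bp, fold 84.5), at 26624 bp. The p-values of both were deposited as 0, so their fragments could not be recovered. At the lowest background of the list, these folds would need 335 and 207 fragments.

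Fold and p-value together give the whole number of ChIP fragments and the expected background behind a summit, under the Poisson model of the peak caller named in the submitters' notes. This worked for all 373 far intergenic peaks with a p-value above 0. The third, assigned to SMAD6, an inhibitory SMAD of BMP signalling (chr15:66842098-66843178, fold 42.1), held 130 Flag ChIP fragments, with an exact Poisson 95% interval of 109 to 154, and a background of 2.11. VPS53, a vesicle tethering gene (chr17:489297-490412, fold 31.7, 32583 bp), had 114 fragments (94.0 to 137) over 2.62. FBRSL1 had 74 (58.1 to 92.9) over 1.47 (chr12:132414329-132415658, fold 30.4, 73893 bp upstream). Fragments exceeded background many times at each of these 3, with ratios of 61.6 (51.4 to 73.1), 43.4 (35.8 to 52.2) and 50.4 (39.6 to 63.3), where the background is taken as fixed.

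The other 5 of the 10 highest were assigned to CRLF3 (fold 28.4, 69 fragments), LINC02367 (27.5, 67), FOXD2 (26.9, 77), SMOX (24.3, 59) and IER5L (23.5, 57). The peaks of CRLF3 and LINC02367 lay over the pseudogenes SUZ12P1 and DDX12P named above. FOXD2, a forkhead factor gene, lay 273420 bp away, and SMOX encodes spermine oxidase. These 10 were the far intergenic peaks with a fold of at least 20 (2.67%), against 12.3% of promoter peaks.

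At the other end stood peaks at HHEX, a homeobox gene of liver development (fold 3.30), and INHBB, an inhibin subunit gene (fold 3.31). They held 10 fragments (4.80 to 18.4) over 2.34 and 11 (5.49 to 19.7) over 2.62. Even so, the highest q-value of the far intergenic peaks was 0.0409.

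The median far intergenic peak rested on 16 Flag ChIP fragments (quartiles 12 to 22, minimum 8, n = 373) over a background of 1.87. Promoter peaks had 21 (15 to 36) over 2.08. The background stood at the floor of the list, 1.47 fragments, for 83 of 373 far intergenic peaks (22.3%, 18.1 to 26.8), against 14.9% (14 to 15.8) of all peaks. At the floor the value is a genome-wide level and no local measurement of the input. A background of over 2 times the median of all peaks was found at 9 far intergenic peaks (2.41%, 1.11 to 4.53), and at 2.46% of all.

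Of those 9, the peak at chr16:46390559-46390859, assigned to SHCBP1 at 193394 bp, stood apart from all others. It held 642 fragments (593 to 694) over a background of 287, the highest of both among all 6293 peaks that could be solved, so its fold of 2.23 was the lowest. A group of 5 peaks lay on chromosome 1 from 143202037 to 143263798, a span of 61.8 kb, all assigned to the U1 variant snRNA gene RNVU1-17. Their folds ran from 4.05 to 17.7 and their backgrounds from 1.47 to 6.75, with 136 and 92 fragments at the 2 highest. Without the 9 peaks of high background the median fold was 5.70 (n = 366).

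**Figure D3:**
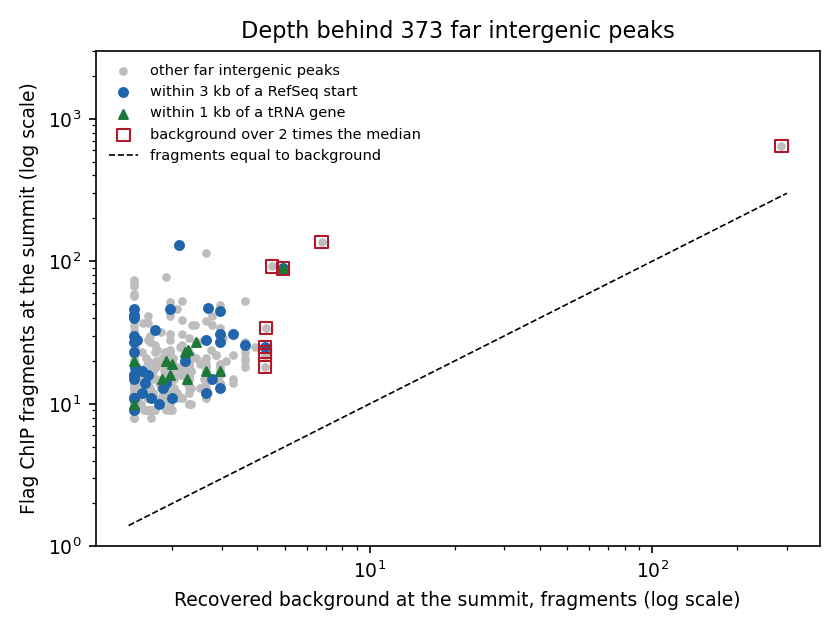
Flag ChIP fragments at the summit against recovered background (both log scales) for 373 far intergenic peaks; each point is a peak, colours and shapes mark peaks near a RefSeq start, near a tRNA gene or of high background, and the dashed line marks equal values. The peak with 642 fragments over 287 lies far to the right of all others, whose highest background is 6.75.

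Genes for tRNAs lay close to several far intergenic peaks, a feature chosen after the values were seen. Within 1 kb of a tRNA gene in the RefSeq table lay 13 of 375 (3.47%, 1.86 to 5.86), and 5 overlapped one. Among nearer intergenic peaks it was 9 of 252 (3.57%, 1.65 to 6.67), among intron peaks 2 of 666 (0.300%, 0.0364 to 1.08) and among promoter peaks 26 of 4905 (0.530%, 0.347 to 0.776). Of all 6373 peaks, 53 lay that close (0.832%, 0.624 to 1.09), and 20 overlapped a tRNA gene (0.314%). The far intergenic share within 1 kb was thus close to that of the nearer intergenic peaks. Over all 443 tRNA genes on these chromosomes, 66 (14.9%) had a peak of any class within 1 kb.

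The highest was the phenylalanine tRNA gene TRF-GAA1-5, shown above, with a fold of 15.2 and 89 fragments over 4.92. TRK-CTT3-1, a lysine tRNA gene, followed with a fold of 8.51 and 20 fragments over 1.47, at a gap of 363 bp. The methionine tRNA genes TRM-CAT1-1 and TRM-CAT2-1 had folds of 8.18 and 4.46. Overlap was also found at the serine gene TRS-AGA2-1 (7.47), the valine genes TRV-CAC2-1 (4.97) and TRV-CAC1-1 (4.92) and the glutamine gene TRQ-TTG3-1 (4.55). The median over the 13 was a fold of 6.69 with 19 fragments. Of the 13 peaks, 7 lay on chromosome 6, all between 26 and 34 Mb, where many tRNA genes lie beside histone genes and the major histocompatibility complex. Without chromosome 6 the shares were 1.77% (0.652 to 3.81) of far intergenic and 0.686% (0.493 to 0.929) of all peaks, so that their intervals overlapped. For nearer intergenic peaks it was 2.89% (1.17 to 5.87), above the far intergenic share, with overlapping intervals.

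No microRNA or snRNA gene lay within 1 kb of a far intergenic peak, where 0 of 375 allows a share of up to 0.8%, taken as 3 counts of the total and covering counting error only. Of all 6373 peaks, 73 (1.15%) lay that close to a microRNA gene and 8 (0.126%) to an snRNA gene, and the snRNA share is below what 375 peaks could show. The deposited annotation also uses microRNA and snRNA genes as assigned starts. The distance rule therefore partly sets the count of 0, which is given as a description only.

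Among the far intergenic peaks, fold differed little with distance from the start. The median distance was 48938 bp, and 187 peaks lay beyond 50 kb. The 90 peaks from 20 to 30 kb had a median fold of 5.40, the 98 from 30 to 50 kb 6.0, the 107 from 50 to 100 kb 5.37, the 37 from 100 to 200 kb 5.61 and the 43 beyond 200 kb 5.67. All 5 binomial intervals of these medians overlapped (lowest bound 4.48, highest 6.89). Spearman's rho between fold and distance was -0.03 across the 375 peaks, and -0.31 across all 6373. The farthest after OR11H1 were at EPHA3 (2156461 bp, fold 3.65, 8 fragments), an ephrin receptor gene, and GBE1 (1455368 bp, fold 7.69, 18 fragments), a glycogen branching enzyme gene. LINC01031 had 2, at 1353007 bp (fold 11.3) and 1116987 bp (fold 4.05).

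Far intergenic peaks lay on both sides of the assigned start. The intergenic class leaves out peaks inside a gene of the deposited annotation, for nearer and far peaks alike. The share on each side is thus partly set by the selection and by gene length, and is given as a description. Upstream of the assigned start lay 164 of 375 (43.7%, 38.6 to 48.9), against 160 of 252 nearer intergenic peaks (63.5%, 57.2 to 69.4). By distance the upstream share was 46.7% from 20 to 30 kb, 56.1% from 30 to 50 kb, 38.3% from 50 to 100 kb, 37.8% from 100 to 200 kb and 27.9% (15.3 to 43.7) past 200 kb. The last interval overlapped that of all far intergenic peaks. The 211 downstream peaks all lay beyond the end of the assigned transcript, by a median of 46032 bp, and 33 of them were within 20 kb of that end.

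**Figure D4:**
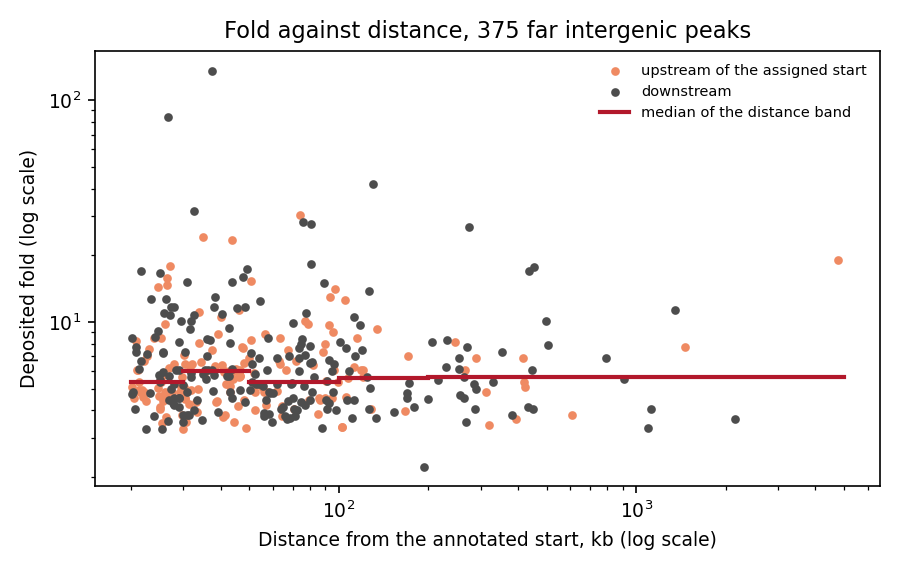
Deposited fold (log scale) against distance from the annotated start in kb (log scale) for the 375 far intergenic peaks, by side of the start; red lines are band medians. The medians stay between 5.37 and 6.0 in all bands.

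The peaks were assigned to 340 genes, of which 311 had 1 peak, 26 had 2 and 3 had more. Protein-coding genes took 258 of the 375 (68.8%, 63.8 to 73.5), long noncoding RNA genes 93 (24.8%), microRNA genes 13 and snRNA genes 6. Of all 6373 peaks 89.8% went to protein-coding genes. After RNVU1-17 with 5, BCL11B, a zinc finger factor gene of T cell development, had 4. Their folds were 5.67, 5.67, 5.05 and 4.41, with 13 to 15 fragments each, and they lay from 25613 to 262987 bp from a start on both sides of the gene. LINC01819 had 3, with folds of 6.77, 4.77 and 3.93.

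Of the 340 assigned genes, 88 (25.9%, 21.3 to 30.9) also had a promoter peak in the list. For genes of nearer intergenic peaks it was 100 of 244 (41.0%) and for genes of intron peaks 223 of 611 (36.5%). Among the 239 protein-coding genes with a far intergenic peak, a restriction added after the data were seen, 82 (34.3%, 28.3 to 40.7) had one. This was 95 of 199 (47.7%, 40.6 to 54.9) for genes of nearer intergenic peaks and 215 of 515 (41.7%, 37.4 to 46.1) for genes of intron peaks. Over all 19974 protein-coding genes it was 4049 (20.3%). The promoter and distal peaks come from the same library.

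Only a gene whose start is the nearest to intergenic sequence over 20 kb away can be assigned a far intergenic peak. How much such sequence each gene has was not measured. The shares of genes are thus partly set by the selection and are given as a description. A far intergenic peak was assigned to 239 of all 19974 protein-coding genes (1.20%), and the gene lists are read beside that share. From the TGF-beta and BMP pathway 4 of 33 genes had one (12.1%, 3.4 to 28.2). These were SMAD6 (fold 42.1), the signal transducer SMAD2 (10.1, 76754 bp upstream, 24 fragments), INHBB with 2 peaks (5.24 and 3.31) and the ligand gene BMP7 with 2 (4.48 and 4.44, at 198808 and 90809 bp). The SMAD6 peak and the BMP7 peak of 4.48 overlapped starts of long noncoding RNA genes, LOC105370869 and LOC105372683. The SMAD2 peak lay nearer to the RefSeq gene ZBTB7C (18324 bp) and to the RefSeq start of LOC105372101 (49848 bp). Among liver cancer drivers and markers it was 3 of 24 (12.5%, 2.66 to 32.4). The kinase gene RPS6KA3 had a fold of 9.04 (95333 bp upstream), the vascular growth factor gene VEGFA had 2 peaks of 8.14 and 8.0 (29115 and 74804 bp, 27 and 28 fragments), and cyclin D1, CCND1, had 5.61. The VEGFA peak of 8.0 lay 643 bp from the start of the long noncoding RNA gene LINC02537.

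VEGFA was also the only one of 21 macrophage-directed cytokine genes, CSF1 included, with such a peak. Of 27 hepatocyte identity genes none was assigned one, which allows a share of up to 11.1% by the same floor of 3 counts, while 15 had a promoter peak. The count goes by the nearest start alone and does not show that no peak lay in these regions. PROX1 is on that list, and a far intergenic peak with a fold of 6.27 was assigned to PROX1-AS1, which is not. Of 241 genes in developmental transcription factor families, 8 had a far intergenic peak (3.32%, 1.44 to 6.44). FOXD2 (26.9), NKX1-1 (8.51) and FOXO6 (6.08) were highest, and TFAP2A, IRX5, FOXO3, FOXN2 and LHX5 lay between 4.54 and 6.03. Of 12 corepressor and 14-3-3 genes only YWHAZ had far intergenic peaks, with folds of 11.0 and 3.90 at 77245 and 55869 bp.

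The distance rule itself keeps far intergenic peaks away from promoter peaks, which make up 4905 of the 6373, so their gaps to other peaks are partly set by the selection and are given as a description. The median gap to the nearest other peak was 90925 bp, against 27326 bp for nearer intergenic peaks and 58911 bp for promoter peaks. Another peak within 50 kb was found for 120 of 375 (32.0%, 27.3 to 37.0), against 46.1% (44.7 to 47.5) of promoter peaks and 45.6% of all. Besides the group at RNVU1-17, the tightest were on chromosome 1 from 235011416 to 235093976 (3 peaks in 82.6 kb, folds 3.79 to 11.0), near the mitochondrial import gene TOMM20, and on chromosome 6 from 28674449 to 28757838 (3 peaks in 83.4 kb, folds 5.73 to 7.63), where each lay within 1 kb of an alanine tRNA gene. A group on chromosome 12 from 132357746 to 132441468 held 4 peaks in 83.7 kb, the FBRSL1 peak among them.

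By chromosome, density ran over a 4.12-fold range. It was taken over the whole span of genes, and the intergenic sequence over 20 kb from a start on each chromosome was not measured. The densities are thus partly set by the selection and are given as a description. Chromosome 6 had 36 far intergenic peaks, 0.211 per Mb between the first and last gene of the chromosome (exact Poisson 95% interval 0.148 to 0.292), and 14 of them lay between 26 and 34 Mb. Chromosome 17 had 0.204 (0.119 to 0.327) and chromosome 1, with the largest number, 46, had 0.185 (0.135 to 0.246). Chromosome 19 had 3, or 0.0512 (0.0106 to 0.150), and these made up 1.04% (0.215 to 3.01) of its 288 peaks, against 5.88% over the genome. The density intervals of chromosomes 6 and 19 overlapped.

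**Figure D5:**
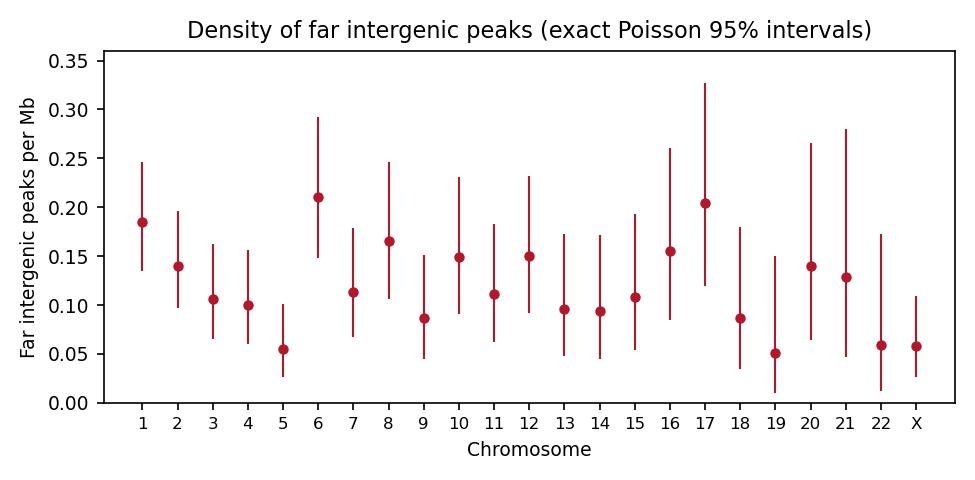
Far intergenic peaks per Mb between the first and last gene (vertical axis) for chromosomes 1 to 22 and X; points are densities and lines exact Poisson 95% intervals. Chromosome 6 was highest at 0.211 and chromosome 19 lowest at 0.0512.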

How the data were processed

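The authors deposited 1 peak table, from 1 Flag ChIP and 1 input library of PLC/PRF/5 cells. Per the file headers it gives each peak's fold enrichment, p-value and q-value, its class and its assigned gene, as the authors deposited them. Per the submitters' processing notes, the build was hg38 and the tools were MACS2 2.2.7.1, Bowtie2 2.4.1, deepTools 3.5.0 and SAMtools, listed with no role or order; the annotation tool is not stated there. Far intergenic peaks were taken by class and a distance over 20000 bp. ChIP fragments and background were solved from fold, with a pseudocount of 1, and p-value under a Poisson model (tolerance 0.001 on −log10 p), a step tested on simulated data. Positions were compared with RefSeq tables of GRCh38.p14, whose promoter windows left out the chromosome of 24 peaks. Shares have exact binomial and counts exact Poisson 95% intervals, and the limit for a count of 0 is 3 counts of the total, with Python 3.11.15, pandas 2.3.3, numpy 2.4.6, scipy 1.17.1 and matplotlib 3.10.9. No test was run, since each kind had 1 library.

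The members and gene lists were chosen with earlier results of these data known. Peaks were named by rule: the 10 highest folds, 5 farthest, 3 lowest, 2 on each side of the distance limit, genes with 3 or more peaks, up to 3 genes per list, the tightest groups and the 5 highest over a RefSeq window. Other genes near RefSeq starts, the tRNA genes, high-background peaks, pseudogenes and further list members were chosen after their values were seen.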

Additional observations from a re-analysis of the deposited data

How the results depend on the processing

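Over 17 results, 125 alternatives were computed, 102 planned and 23 added after seeing the data. Of these, 82 counted as unmoved, 43 moved and 0 changed sign, which could be counted only for the differences in median fold. Unmoved meant inside the interval of the value reported. For the number of peaks a ratio was used in place of the interval. By that ratio 497 peaks with a 10 kb limit and 329 without chromosome 1 counted as unmoved, although both lay outside the interval of 338 to 415. A fold of at least 5 left 233 far intergenic peaks, with a median fold of 6.89, 22.7% at a fold of at least 10, a median of 19 fragments, a median fold minus that of promoter peaks of -1.87 and 26.2% with another peak within 50 kb. A −log10 q of at least 10 left 122, with 9.21, 43.4%, 27 fragments, -1.78 and 18.9% for the same measures, 39.3% inside a RefSeq gene and 17.4% within 3 kb of a RefSeq start. Measuring 20 kb from RefSeq gene ends left 113 peaks, with a median fold of 5.37, 9.73% at a fold of at least 10 and a difference to promoters of -1.60. A 50 kb limit left 187 peaks, 17.6% with another peak within 50 kb and 1.07% within 1 kb of a tRNA gene, and a 10 kb limit gave 38.8% with another peak within 50 kb. Another peak lay within 10 kb of 5.33% and within 100 kb of 52.8%, with the share partly set by the distance limit. Counting only protein-coding genes put 7.73% inside a gene. The tRNA share was 1.77% without chromosome 6 and 1.33% for overlap. The median fold minus that of nearer intergenic peaks, -0.34 as reported, lay between -0.59 and -0.09 under the 7 alternatives run. Where an alternative changed the distance limit, the nearer set was redrawn at that limit and was no longer the peaks within 20 kb. The intervals of the differences in median fold took the reference median as fixed. Limits on fold or q keep peaks by the measure itself or by one tied to it. The higher median folds, shares at a fold of at least 10 and fragments under them follow from that selection. The cause of the other moves was not tested, beyond the fewer peaks that a stricter limit leaves. No paired analysis was possible because Flag ChIP and input have 1 library apiece. The fewest fragments behind a far intergenic peak were 8, at 3 peaks.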
